A study of Mus musculus with 15 samples.

Results

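RNA of 8 complement genes, C1qa, C1qb, C1qc, C2, C3, C3ar1, C5ar1 and Serping1, was followed in mice whose microglia had lost the autophagy gene Atg7. The genes were chosen by name, and all 8 were found among the 54532 genes of the forebrain count table and among the 32285 genes of the single-cell matrices. Forebrain RNA came from 6 control samples of genotype ATG7FF; 5xFAD and 7 knockout samples of genotype Cx3cr1CreER;ATG7FF;5xFAD, called cKO below. The 5xFAD transgenes carry human mutations of familial Alzheimer's disease, and the mice form amyloid plaques. Sorted microglia, CD11b-high and CD45-low cells, came from mice without these transgenes, with 1 library pooled from 3 ATG7FF forebrains and 1 pooled from 4 ATG7FF;Cx3cr1CreER forebrains. Every group was C57BL/6, carried floxed Atg7, was given tamoxifen (1.5 mg) when 2 months old and was sampled at the age of 8 months, 6 months later. Cx3cr1CreER is a tamoxifen-inducible Cre recombinase placed in the Cx3cr1 locus, which microglia and other mononuclear phagocytes use. The controls lack this allele, so the loss of Atg7 and the presence of the Cre allele cannot be told apart. Nothing in the labels ties each forebrain sample to a mouse of its own, and p-values cover the spread among the samples only.

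Complement is a cascade of blood and tissue proteins that tag cells and debris for removal. The classical pathway starts with C1q, which is built from the products of C1qa, C1qb and C1qc and works with the proteases C1r and C1s. C1s cleaves C4 and C2 into the enzyme that activates C3, whose fragments are read by receptors such as C3ar1 and complement receptor 3 (Itgam with Itgb2). C5ar1 is the receptor for the C5 fragment C5a, and Serping1 encodes the C1 inhibitor, which blocks C1r and C1s. In the brain, microglia are the main source of C1q, and C1q and C3 mark synapses for removal by microglia.

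The 3 chain genes sit side by side on the minus strand of chromosome 4 (GRCm38, GENCODE M21). C1qb spans 136880129 to 136886187, C1qc spans 136889804 to 136893065 and C1qa spans 136895917 to 136898803. The stretch before the start site is shown for the 2 of these genes that the RefSeq promoter table (GRCm38.p6) holds, since the chains moved together in the forebrain. C3ar1 is shown beside them as a microglial complement receptor that did not pass the same test. The table held 5 of the 8 genes, and C1qa, C2 and Serping1 had no entry. Each sequence runs 5′ to 3′ on the gene's own strand and ends before the start sites of both annotations, at chr4:136886201-136886450 for C1qb, chr4:136893066-136893164 for C1qc and chr6:122856162-122856407 for C3ar1. Capitals mark letters of 2 motifs of macrophage transcription factors, searched on both strands: the PU.1 core GAGGAA and the MAF half-site TGCTGA.
C1qb: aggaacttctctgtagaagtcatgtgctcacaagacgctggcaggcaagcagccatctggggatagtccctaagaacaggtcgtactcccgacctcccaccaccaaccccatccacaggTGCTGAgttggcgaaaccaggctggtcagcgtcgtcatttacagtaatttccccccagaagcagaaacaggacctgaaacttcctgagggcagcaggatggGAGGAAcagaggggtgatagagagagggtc
C1qc: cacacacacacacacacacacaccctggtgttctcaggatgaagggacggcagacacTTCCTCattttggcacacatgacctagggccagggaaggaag
C3ar1: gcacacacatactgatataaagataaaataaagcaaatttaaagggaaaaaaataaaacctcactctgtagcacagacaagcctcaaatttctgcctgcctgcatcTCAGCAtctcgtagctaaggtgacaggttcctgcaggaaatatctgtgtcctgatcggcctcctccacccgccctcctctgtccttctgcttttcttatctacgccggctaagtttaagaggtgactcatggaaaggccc
C1qb held both motifs, GAGGAA 30 bases and TGCTGA 131 bases before its RefSeq start. C1qc held the PU.1 core on the other strand, 193 bases before its RefSeq start, and C3ar1 held the MAF half-site on the other strand, at 144 bases. Of the matched genes not shown, C3 held the MAF half-site at 182 bases and C5ar1 at 17 bases before the RefSeq start. Neither held the PU.1 core. Of the 32851 promoters in the table, 23.3% held the PU.1 core and 16.1% the MAF half-site in the 250 bases before the start. An ETS-IRF composite motif was also searched, and it occurred in 2.3% of them and in none of the 5 matched genes. A match to these letters is a description and does not show binding.

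The forebrain libraries held 16658707 to 22355512 counts. Library cKO 5 stood apart: between it and each other cKO library, chi-square per degree of freedom over gene counts was 10.0 to 24.1, and it was 3.55 to 8.80 among the others. Results are given with and without it where it moves them. Atg7 RNA ranged from 21.2 to 27.4 CPM (counts scaled to a common library total) in control and from 22.8 to 25.8 CPM in cKO forebrains. Microglia are a minority of forebrain cells, so Atg7 in whole tissue does not check the deletion. Cx3cr1, the locus of the Cre allele, ranged from 59.9 to 68.3 CPM in controls and from 20.8 to 28.0 CPM in cKO samples, a log2 change of -1.37 (SE 0.07, adjusted p = 5.03e-11). In the sorted microglia Atg7 had 15.8 CPM (control) and 17.3 CPM (cKO), from tags at the 3′ end of the transcript, which does not check the deletion either.

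All 3 C1q chain genes fell in cKO forebrain, each to about the same degree, while C2, C3, C3ar1, C5ar1 and Serping1 did not pass the test. C1qa fell 1.60-fold, C1qb 1.54-fold and C1qc 1.57-fold in mean CPM. In each of these genes the highest of 7 cKO libraries was lower than the lowest of 6 controls. The members called were thus 3 lower and 0 higher of 8, where 0.277% of the 16956 genes tested were called lower and 0.0531% higher. By edgeR, 4 of the 8 had an unadjusted p under 0.05, the chains and Serping1, where 7.71% of all genes tested did. DESeq2 also called the 3 chains lower and 0 members higher, where it called 63 lower and 23 higher of 20232 genes. Of all genes tested, 0.313% had every cKO library below every control and 0.13% every cKO library above.

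C1qa ranged from 47.0 to 57.8 CPM (median 50.9) in control forebrains. In cKO forebrains C1qa ranged from 22.2 to 45.9 CPM (median 30.9). The highest cKO value, in cKO 5, came close to the lowest control, and the other 6 cKO libraries were at or below 35.0 CPM. The means were 51.2 ± 3.80 CPM (SD, n = 6) and 32.0 ± 7.43 CPM (SD, n = 7), and the log2 change was -0.68 (SE 0.12, adjusted p = 0.0178 by edgeR's quasi-likelihood test). Without cKO 5 the log2 change of C1qa was -0.79 (adjusted p = 1.67e-05). The call was lost without control 4 (adjusted p = 0.0512), without control 5 (0.0692), without cKO 3 (0.0558) and without the filter on low counts (0.117), at log2 changes of -0.64 to -0.68.

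C1qb ranged from 48.2 to 68.3 CPM (median 55.4) in control and from 30.6 to 45.0 CPM (median 37.8) in cKO forebrains. The groups did not overlap, and cKO 5 was again the highest cKO library. The means were 57.0 ± 7.02 CPM (SD, n = 6) and 37.1 ± 4.64 CPM (SD, n = 7), a log2 change of -0.62 (SE 0.08, adjusted p = 0.000409). C1qc ranged from 39.9 to 52.7 CPM (median 45.7) in control and from 24.6 to 39.8 CPM (median 26.6) in cKO forebrains. In C1qc, cKO 5 nearly touched the lowest control, and the next cKO library stood at 30.3 CPM. The means were 45.3 ± 4.50 CPM (SD, n = 6) and 28.8 ± 5.24 CPM (SD, n = 7), a log2 change of -0.66 (SE 0.09, adjusted p = 0.00124). Without cKO 5 the log2 changes were -0.67 for C1qb (adjusted p = 1.67e-05) and -0.75 for C1qc (2.91e-07).

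**Figure D1:**
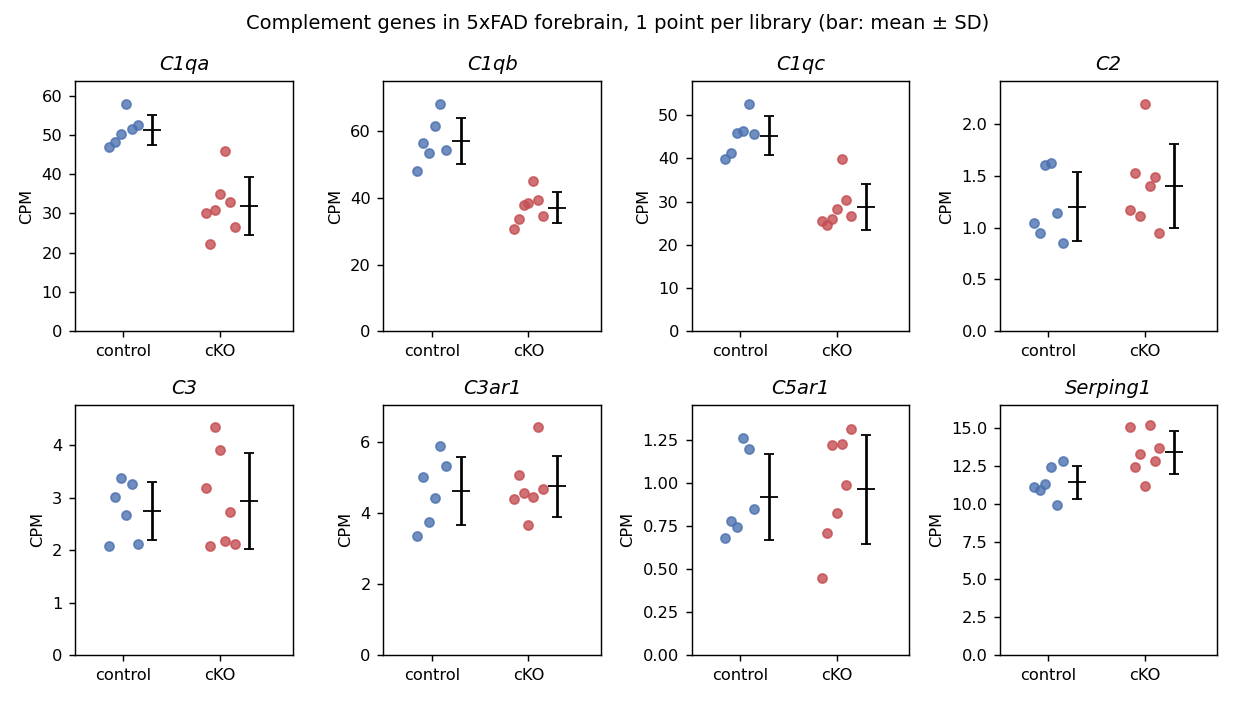
CPM of the 8 complement genes in each forebrain library (y axes from 0, 1 point per library, 6 control in blue and 7 cKO in red, bars mean ± SD). The cKO points lie below all control points for C1qa, C1qb and C1qc, and the groups overlap for the other 5 genes.

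Across genes the log2 change in these data ran with GC content (Spearman 0.359 over genes, which are not independent replicates) and with exonic length (-0.211). C1qa, C1qb and C1qc have 59.5%, 57.4% and 57.5% GC, where the median tested gene has 49.6%. With offsets for GC content and length the log2 changes were -0.76, -0.69 and -0.73, with adjusted p of 2.21e-05, 0.000307 and 3.82e-05.

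The balance between the chains did not differ detectably between the groups. Per control library, C1qa stood at a geometric mean of 0.901 times C1qb in CPM, and per cKO library at 0.849 times, a log2 difference of -0.09 (exact permutation test, two-sided, p = 0.428, adjusted over the 3 pairs 0.617). C1qa over C1qc differed by -0.04 (exact permutation p = 0.617, adjusted 0.617) and C1qb over C1qc by 0.04 (p = 0.476, adjusted 0.617). With 6 against 7 libraries the smallest p this test can give is 0.000583. Library-to-library variation of the chains was then compared within each group. Over the 7 cKO libraries Pearson's r of log2 CPM was 0.78 for C1qa with C1qb, 0.89 for C1qa with C1qc and 0.86 for C1qb with C1qc. The exact permutation p of these, adjusted over 6 relations, was 0.0792, 0.0321 and 0.0321. Spearman's rho was 0.86, 0.86 and 0.93 (adjusted permutation p 0.0476, 0.0476 and 0.0405). Without the 2 libraries farthest from the median of the first-named gene of each pair, r was 0.57, 0.58 and 0.82. Without cKO 5 alone r was 0.53, 0.74 and 0.74. Over the 6 control libraries r was 0.58, 0.57 and 0.85 for the same pairs (adjusted exact permutation p 0.244, 0.244 and 0.0792). Spearman's rho there was 0.60, 0.71 and 0.77 (adjusted permutation p 0.242, 0.163 and 0.154), and r without the 2 farthest libraries by the same rule was 0.22, 0.68 and 0.15. In the controls 0 of 3 relations thus passed by either measure. In the cKO libraries all 3 passed by Spearman's rho, and by Pearson's r all but C1qa with C1qb. The correlations were not tested for a difference between the groups, which had 6 and 7 libraries.

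Neighbours of the chain genes on chromosome 4 did not pass the test. Of the genes tested within 300 kb, Kdm1a, Ephb2, Epha8 and Zbtb40 had log2 changes of -0.05, -0.18, 0.04 and -0.11 (adjusted p 0.472 to 0.941). The genes that varied most like the mean of the 3 chains, over 13 libraries centred on their group means, were Ifi27 (r = 0.93), Tyrobp (0.93), Trappc5 (0.92), Tmem38a (0.92) and Pafah1b3 (0.91), among 15417 genes. Without cKO 5 these r were 0.86, 0.86, 0.81, 0.88 and 0.84, at ranks 5 to 35. Of these 5 genes only Tyrobp was lower in cKO forebrain by the test (log2 change -0.76, SE 0.12, adjusted p = 0.00316), and the other 4 had log2 changes of 0.02 to 0.18 (adjusted p 0.699 to 0.943). These are descriptions over libraries that share depth and preparation. Tyrobp, an adaptor of microglial receptors, is not among the 10 microglial markers used here, of which Csf1r had r = 0.37 and P2ry12 had r = -0.47.

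C2, the protease that joins C4 in the classical C3 convertase, was close to the lower end of measured genes at 14 to 37 counts per library. C2 ranged from 0.849 to 1.63 CPM (median 1.09) in control and from 0.950 to 2.19 CPM (median 1.40) in cKO forebrains. The groups overlapped, with 1 cKO library above all controls, and the log2 change was 0.21 (95% interval -0.27 to 0.69, adjusted p = 0.842). C3, the protein on which the pathways converge, ranged from 2.08 to 3.37 CPM (median 2.84) in control and from 2.09 to 4.35 CPM (median 2.73) in cKO forebrains. For C3, 2 cKO libraries lay above all controls and 4 of 7 below the control mean, and the log2 change was 0.09 (95% interval -0.31 to 0.49, adjusted p = 0.922).

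The 2 receptors among the members, C3ar1 and C5ar1, showed no detectable change. C3ar1, the C3a receptor, ranged from 3.35 to 5.90 CPM (median 4.72) in control and from 3.67 to 6.45 CPM (median 4.57) in cKO forebrains. The C3ar1 groups covered nearly the same range, and the log2 change was 0.05 (95% interval -0.25 to 0.35, adjusted p = 0.943). This interval does not reach the estimates of the C1q chains, and the difference between genes was not itself tested there. C5ar1, at 10 to 28 counts per library, ranged from 0.680 to 1.26 CPM (median 0.815) in control and from 0.449 to 1.32 CPM (median 0.992) in cKO forebrains. Its log2 change was 0.05 with a wide interval of -0.50 to 0.60 (adjusted p = 0.969).

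Serping1, the C1 inhibitor gene, leaned the other way without passing the test. It ranged from 9.91 to 12.9 CPM (median 11.2) in control and from 11.2 to 15.2 CPM (median 13.3) in cKO forebrains. Of the 7 cKO libraries, 6 lay above the control mean and 4 above every control. The means were 11.4 ± 1.08 CPM (SD, n = 6) and 13.4 ± 1.43 CPM (SD, n = 7), and the log2 change was 0.23 (SE 0.09, adjusted p = 0.539 over all genes tested by edgeR).

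Per kilobase of exon, the order of levels in control forebrain was C1qb at 52.4 ± 6.45 RPKM (CPM divided by exon length in kilobases, SD, n = 6), C1qa at 49.2 ± 3.66, C1qc at 23.5 ± 2.33, Serping1 at 4.92 ± 0.464, C3ar1 at 1.08 ± 0.226, C3 at 0.535 ± 0.108, C5ar1 at 0.358 ± 0.0969 and C2 at 0.310 ± 0.0863 RPKM. C1qb and C1qa did not differ beyond their spread, nor did C5ar1 and C2. In cKO forebrain the order by RPKM was the same down to C3, with C1qb at 34.1 ± 4.26, C1qa at 30.7 ± 7.15 and C1qc at 14.9 ± 2.71 RPKM (SD, n = 7). C5ar1 at 0.376 ± 0.124 and C2 at 0.363 ± 0.105 RPKM again lay within each other's spread.

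Beyond the 8 genes, a list of 62 complement genes covered the classical, alternative, lectin and terminal parts, the regulators and the receptors. Of these, 41 were tested in the forebrain, and 5 were called lower and 0 higher, beside 0.277% and 0.0531% of all genes tested. The median log2 change of the 41 was -0.01, where the median of all genes tested was 0.00. Beside the 3 chains, the 2 called were both integrin chains of phagocyte complement receptors. Itgam (CD11b, a chain of complement receptor 3) stood at 7.08 ± 0.908 CPM (SD, n = 6) in control and 4.18 ± 0.541 CPM (SD, n = 7) in cKO forebrain, a log2 change of -0.76 (SE 0.12, adjusted p = 0.00153). Itgax (CD11c, a chain of complement receptor 4), also a gene of the state that microglia take near plaques, stood at 8.08 ± 2.37 against 1.85 ± 0.248 CPM, 4.37-fold lower (log2 change -2.11, SE 0.16, adjusted p = 6.79e-08). The highest cKO library was below the lowest control in both Itgam and Itgax. Itgb2, the partner chain of Itgam in complement receptor 3, did not pass (log2 change -0.34, SE 0.10, adjusted p = 0.318 by edgeR).

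By part of the cascade, 3 of 8 tested classical genes were lower and 0 higher. Over all genes tested, 0.277% were called lower and 0.0531% higher, which holds for each part below. Apart from the members, the classical genes with the largest changes were C4a (log2 change 0.55, SE 0.23, adjusted p = 0.591) and the C1s gene C1s1 (0.15, SE 0.21, adjusted p = 0.874). C4a and C4b are near-identical copies, so the split of reads between them is uncertain. Of the regulators, 0 of 16 passed in either direction, and 0 of 2 passed in each of the alternative, lectin and terminal groups. Among the regulators, Cd46, a membrane cofactor that limits C3 activation, had a log2 change of 0.31 (SE 0.18, adjusted p = 0.695). Of the receptors, 2 of 11 were lower, Itgam and Itgax, and the median log2 change of that group was -0.20. Among the 41 genes, 12 had an unadjusted p under 0.05 by edgeR, 2 of them regulators, beside the 7.71% of all genes. DESeq2 called 5 lower and 0 higher, where it called 63 lower and 23 higher of 20232 genes.

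RNA of microglial markers fell beside the C1q chains. Of 10 markers (among them Csf1r, P2ry12, Tmem119, Aif1, Sall1, Gpr34, Olfml3, Fcrls and Siglech) 6 were lower and 0 higher by the test, all 10 had negative log2 changes, and their median was -0.54. Over all genes tested, 0.277% were called lower and 0.0531% higher. The summed level of the markers ranged from 408 to 481 CPM in control and from 281 to 320 CPM in cKO forebrains. In bulk tissue, fewer microglia and less RNA per microglial cell cannot be told apart. None of the 7 border macrophage, 7 astrocyte, 7 oligodendrocyte, 7 neuron or 6 endothelial markers tested was called by edgeR (1, 1, 2, 0 and 1 of them had an unadjusted p under 0.05), and their summed levels overlapped between the groups in every list. Of the monocyte, neutrophil and lymphocyte lists 5 markers were tested and none was called (2 at an unadjusted p under 0.05).

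Each member was therefore set beside the mean log2 CPM of the 10 markers in the same library. The marker mean itself was 0.50 lower in cKO than in control forebrain on the log2 scale. Beside the markers the C1q chains did not differ detectably: C1qa by -0.21 on the log2 scale (exact permutation test, two-sided, p = 0.202, adjusted over the 8 comparisons 0.231), C1qb by -0.12 (p = 0.291, adjusted 0.291) and C1qc by -0.17 (p = 0.202, adjusted 0.231). C1qa over the markers ranged from 0.64 to 1.00 in control and from 0.08 to 1.22 in cKO libraries, and 6 of 7 cKO libraries lay below the control mean, with cKO 5 the exception. Without cKO 5, C1qa differed by -0.32 (exact permutation, adjusted p = 0.0242) and C1qc by -0.27 (adjusted 0.0231), both then past the threshold, and C1qb by -0.19 (adjusted 0.0693), which was not.

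The other 5 genes stood higher beside the markers, 4 of them past the threshold. Serping1 over the markers rose by 0.72 on the log2 scale, from between -1.72 and -1.19 in control to between -0.95 and -0.36 in cKO libraries, with all 7 cKO libraries above all 6 controls (exact permutation p = 0.000583, the smallest possible, adjusted 0.00466). C3ar1 rose by 0.54, from between -3.07 and -2.44 to between -2.53 and -1.63, with 6 of 7 cKO libraries above every control (exact permutation p = 0.00466, adjusted 0.0186). C2 rose by 0.70 and C3 by 0.55, with 4 of 7 cKO libraries above every control in each (exact permutation p = 0.0111 and 0.0146, both adjusted to 0.0291). C5ar1 differed by 0.53 (exact permutation p = 0.0653, adjusted 0.104). As the CPM of these 5 genes did not pass the test on their own, their rise is relative to markers that fell. The marker mean changed by -0.50 on the log2 scale, so a gene of unchanged CPM rises by about that size. This mean ranged from 4.84 to 5.05 in control and from 4.30 to 4.53 in cKO libraries, without overlap. A gene of unchanged CPM and small spread can therefore pass, so the 4 calls do not show a change in these genes. The share of all genes tested that would pass this comparison was not computed. In the sorted microglia without amyloid, described below, Serping1 had 0 UMIs and C2 and C3 were nearly absent. For Serping1, C2 and C3 the ratio therefore does not give a level within microglia. The calls for C2 and C3 were both lost without control 1, control 6, cKO 4 or cKO 6, which leaves 2 genes past the threshold. The C3 call was also lost without control 4 or cKO 3, and C5ar1 passed without cKO 1 (0.70, adjusted p = 0.0260).

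**Figure D2:**
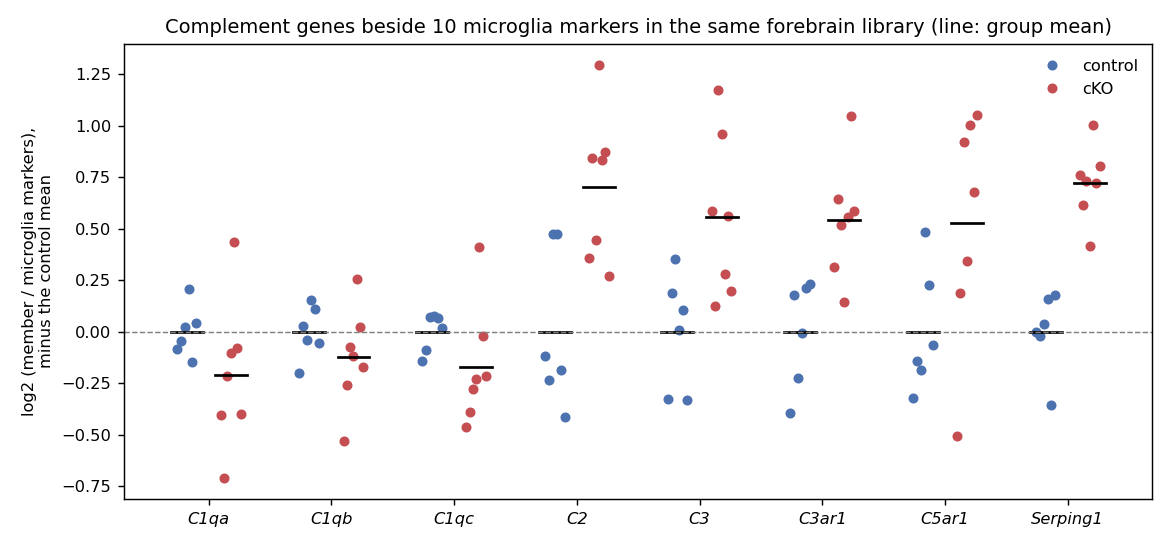
Log2 of each complement gene over the mean of 10 microglial markers in the same forebrain library, minus the control mean (y axis; 1 point per library, 6 control in blue, 7 cKO in red, black line the group mean). Of the 7 cKO points, 6 lie below 0 for C1qa and C1qc and 5 for C1qb, with cKO 5 the highest, while all 7 cKO points of Serping1 lie above all control points.

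The sorted microglia gave the levels of these genes per cell type, without amyloid and with 1 pooled library per genotype, so there is no replicate check, no test and no p-value. The control library held 6633 barcodes with a median of 1368 UMIs (unique molecular identifiers, 1 per captured RNA), and the cKO library 9840 barcodes with a median of 4306 UMIs. The libraries shared 22 barcodes. Microglia-like cells were named by the 10 markers, the leading genes of each cluster and its UMI count. They were 6225 of 6243 cells kept in the control and 7499 of 8874 in the cKO library. Their median UMI counts were 1391 and 4834. Of the cKO cells left out, 1340 lay in a cluster with few UMIs that had all 10 markers. Most control cells (5819) lay in cluster 0, led by Fos, Calr and Hspa5, and most cKO cells (5499) in cluster 1, led by histone genes, so each genotype's sum rests mostly on a different cluster. In cells summed per library, the intervals below are exact at 95% and cover counting error only.

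C1q chains were abundant in both microglia libraries, at 5851 to 8982 CPM, and had slightly lower summed levels in the cKO library. C1qa had 8982 CPM in the control library against 8334 in the cKO library, which is 0.928 times (0.921 to 0.935). C1qb stood at 8096 and 7730 CPM, a ratio of 0.955 (0.947 to 0.962), and C1qc at 6594 and 5851 CPM, a ratio of 0.887 (0.879 to 0.895). None of these was 1.5-fold apart, and neither were C3ar1 and C5ar1: 0 of the 5 members with at least 20 CPM passed that size, where 3.14% of 6744 genes did. The 10 markers summed to 25673 CPM in control and 23667 CPM in cKO microglia. The median log2 ratio of all genes at this level was 0.04.

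Within single clusters the C1q ratios lay on both sides of 1. Within cluster 0 the cKO library had 1.12 times the C1qa, 1.21 times the C1qb and 1.04 times the C1qc CPM of the control library. Within cluster 1 the ratios were 1.05, 1.14 and 0.951. In the smaller clusters 2 and 6, with 40 and 59 control cells, they were 1.01, 1.19 and 0.990, and 0.965, 1.03 and 0.936. In cluster 3, with 12 control cells, all 3 were below 1 (0.792, 0.791 and 0.874). Among microglia-like cells with at least 1000 detected genes, they were 0.979, 0.992 and 0.918. The lower C1q of the summed cKO microglia is thus not seen in every cluster.

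Within the cKO library, where every microglia-like cluster had at least 53 cells, C1qa was lowest in cluster 3, led by cell-cycle genes, at 5743 CPM (5489 to 6005), and highest in cluster 0 at 10129 CPM (9887 to 10376). C1qb and C1qc were also lowest in cluster 3 among the microglia-like clusters, at 5483 and 4350 CPM. C3ar1 ran from 78.4 CPM (41.7 to 134) in cluster 4, whose cells had few UMIs, to 287 CPM (275 to 299.9) in cluster 2, led by Apoe and Lyz2. Cluster 6, led by interferon-induced genes such as Ifit3 and Irf7, had 283 CPM of C3ar1 (240 to 332) and 9238 CPM of C1qa (8983 to 9499). These levels describe clusters formed from all genes, and no test was made between them.

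**Figure D3:**
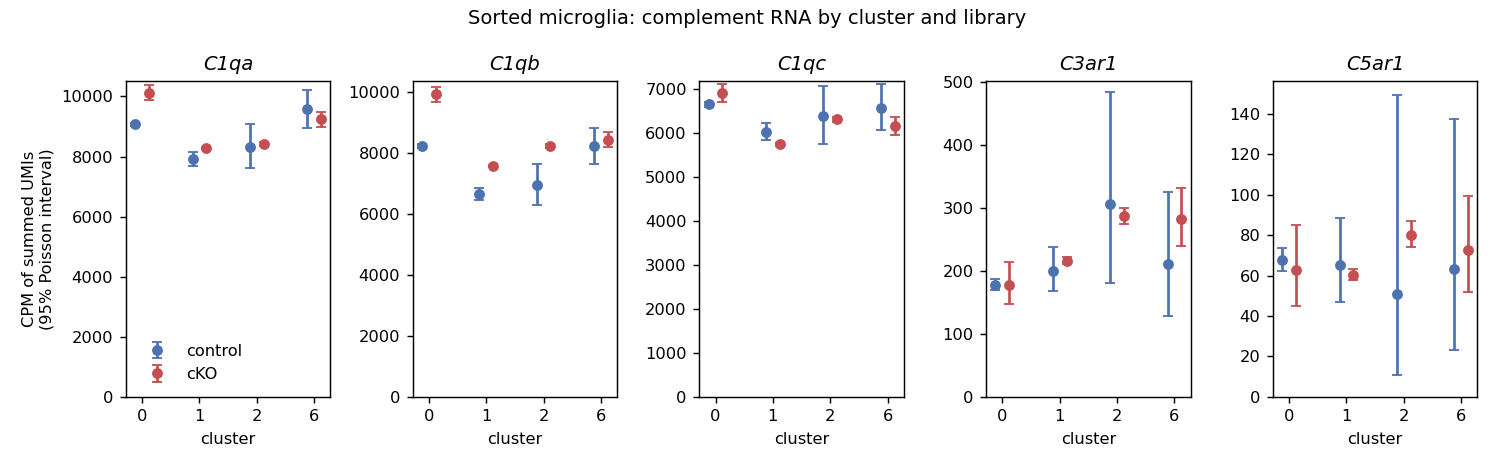
CPM of summed UMIs for 5 complement genes in the 4 microglia-like clusters with at least 40 cells in each library (x axis, cluster number; y axes from 0; blue control, red cKO; bars exact Poisson 95% intervals). In cluster 0 the cKO values of C1qa, C1qb and C1qc lie above the control values, and the intervals of C3ar1 and C5ar1 overlap in all 4 clusters.

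C1qa, C1qb and C1qc made up 37.9%, 34.2% and 27.9% of the C1q UMIs of control microglia, and 38.0%, 35.3% and 26.7% of those of cKO microglia. Per cell, the 90th percentile of the C1q share was 2.02 times the 10th in the control and 1.94 times in the cKO library. In the control library a cell had a median of 233 C1q UMIs per 10000 UMIs, with 158 at the 10th and 320 at the 90th percentile. In the cKO library these were 214, 148 and 287. Only 3 of 6225 control and 18 of 7499 cKO cells had no C1q UMI. After each cell was thinned to 1000 UMIs, which left out 587 control and 82 cKO cells, all 3 chains were seen in 99.6% of control and 98.3% of cKO cells. In the cluster led by choroid plexus genes, C1qa was seen in 56.7% of 30 thinned cKO cells (exact binomial interval 37.4% to 74.5%, median 3048 UMIs before thinning) and in 42.9% of 14 control cells (17.7% to 71.1%, median 1812 UMIs). The mean there was 2.73 UMIs per thinned cKO cell, against 8.25 in microglia-like cKO cells. That cluster also had 9 of the 10 microglial markers in 25% or more of its cells. How much of its C1q is free RNA was not tested. Across thinned cells the chains correlated weakly (r of 0.17 to 0.32 in the 2 libraries), over cells that share library and depth.

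**Figure D4:**
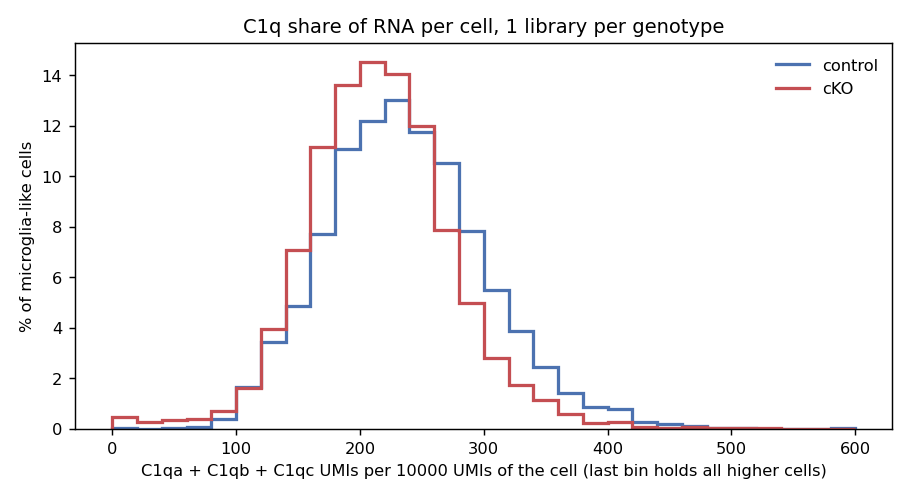
Distribution of C1q RNA per microglia-like cell (x axis, C1qa + C1qb + C1qc UMIs per 10000 UMIs of the cell; y axis, percent of cells; blue control with 6225 cells, red cKO with 7499 cells). Both libraries form a main peak, with medians of 233 and 214. The lowest bin, under 20, held 3 control cells (0.0482%) and 34 cKO cells (0.453%), and the next bin held 0 and 21.

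C3ar1 had 180 CPM in control against 229 in cKO microglia, which is 1.27 times (1.20 to 1.34). It did not exceed the control within cluster 0 (ratio 1.00, 0.824 to 1.21), and within cluster 1 the ratio was 1.08 (0.907 to 1.30). In thinned cells, 15.6% of control and 19.7% of cKO microglia had a C3ar1 UMI (21.5% and 59.8% unthinned), against 12.6% of the cKO cells that were not microglia-like. C5ar1 stood at 67.3 and 64.1 CPM, a ratio of 0.952 (0.871 to 1.04), and was seen in 6.47% and 5.84% of thinned cells (9.04% and 24.7% unthinned), against 2.08% of the cKO cells that were not microglia-like. For C5ar1 the counting interval includes equal levels. Of the 914 thinned cKO cells that were not microglia-like, 884 came from the cluster with few UMIs, which had all 10 microglial markers. These cells therefore do not stand for another cell type.

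C2, C3 and Serping1 were nearly absent from the sorted microglia. C2 had 1 UMI in control and 12 in cKO microglia, or 0.110 and 0.314 CPM, and the interval of the ratio ran from 0.423 to 122. C3 had 1 and 23 UMIs, or 0.110 and 0.603 CPM, with an interval of 0.889 to 226. Serping1 had 0 UMIs among 9087230 of the control and 38169444 of the cKO microglia, with exact upper limits of 0.406 and 0.0966 CPM. In the forebrain, by contrast, Serping1 was measured in every library at 173 to 336 counts. The sorted cells carried no amyloid transgenes and the forebrains did, so the levels come from different mice and assays.

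**Figure D5:**
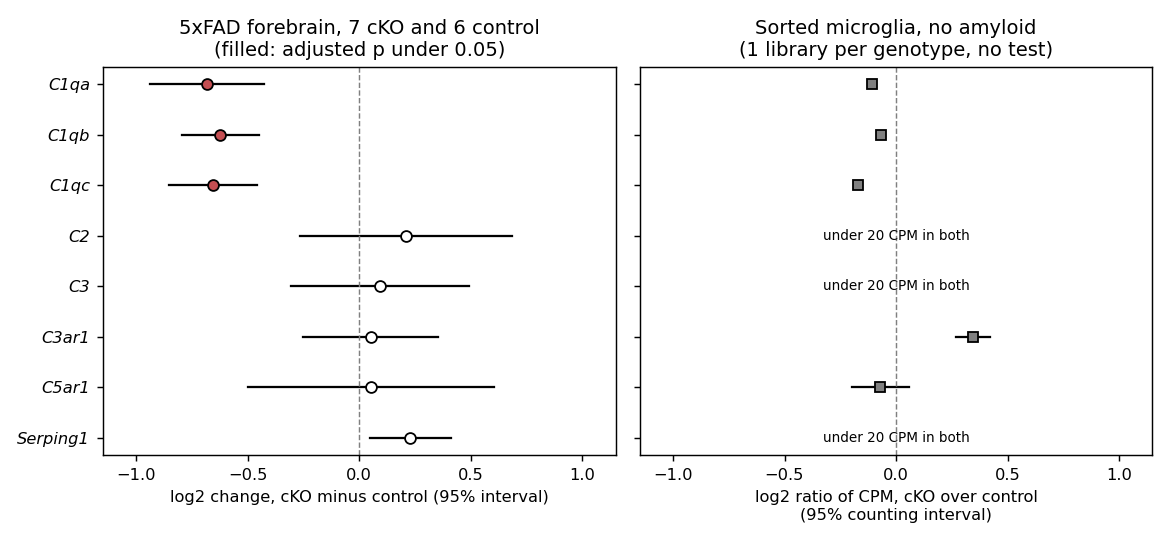
Left, log2 change of each complement gene in 5xFAD forebrain (x axis, cKO minus control, 95% interval, filled where adjusted p is under 0.05). Right, log2 ratio of summed CPM in sorted microglia without amyloid (x axis, cKO over control, 95% counting interval, no test); C1qa, C1qb and C1qc lie between -0.94 and -0.43 in their forebrain intervals and between -0.17 and -0.07 as ratios in microglia.

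Of the wider list of 62 genes, 14 reached 20 CPM in the microglia, and 0 were at least 1.5-fold higher and 2 at least 1.5-fold lower in the cKO library, where 1.79% and 1.35% of all genes at this level were. The 2 were named after their values were seen. Csmd3, a membrane protein with complement control repeats, stood at 280 and 156 CPM, 1.79-fold lower (1.71 to 1.88). Calr, an endoplasmic reticulum chaperone that can bind C1q at the cell surface, stood at 719 and 185 CPM, 3.89-fold lower (3.76 to 4.03), and is one of the genes that lead cluster 0. Itgam stood at 681 and 604 CPM, a ratio of 0.888 (0.863 to 0.913). Itgax had 16 and 162 UMIs, or 1.76 and 4.24 CPM, under the limit of 20 CPM in both libraries. C4b had 10 and 55 UMIs in the microglia, or 1.10 and 1.44 CPM, a ratio of 1.31 whose interval includes equal levels (0.661 to 2.88). Its forebrain levels ran from 78.0 to 106 CPM in control and from 80.2 to 99.9 CPM in cKO samples (log2 change 0.00, adjusted p = 0.997 by edgeR). Of the other lists, border macrophage markers summed to 5.83 CPM in the control and 14.8 CPM in the cKO microglia, with Lyve1 and Cd163 at 0 in both. Their part in these results was not tested.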

How the data were processed

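Forebrain RNA was measured in 13 libraries and sorted microglia in 2. The deposited forebrain values were whole-number read counts per gene. Per the submitters' processing notes, the authors aligned to mm10 with HISAT2 2.0.5 and counted with featureCounts 1.5.0-p3, and per the labels the RNA was poly-A selected. Neither the annotation release nor whether counting used strand is given in the sources used here. Overlapping and antisense genes may therefore share reads. The deposited single-cell values were UMI counts for each barcode and gene, from Cell Ranger 6.1.0 as the file headers say. Groups came from the genotype labels, and 0 columns were left unmapped.

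The test on forebrain counts was edgeR 4.0.16 in R 4.3.3, with filterByExpr, TMM scaling, the robust quasi-likelihood F-test, two-sided, and Benjamini-Hochberg adjustment over 16956 genes at a threshold of 0.05. Log2 changes are cKO minus control, and CPM and RPKM use TMM-scaled totals and GENCODE M21 exon lengths. Within a group, the lowest chi-square per degree of freedom of any library pair was 2.75, more than sampling noise would give. The biological coefficient of variation was 10.0%. Ratios to markers used log2 of CPM plus a pseudocount of 0.1 and exact permutation tests (SciPy 1.17.1). On data simulated for 7 against 6 libraries over 16771 genes, the test called 92% of genes changed 2-fold, 93.8% at 0.5-fold, 78% at 1.5-fold and 83.7% at 0.6-fold, with 15 false calls.

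Cells were kept from 500 detected genes and up to 10% mitochondrial UMIs, and clustered in scanpy 1.11.5 (2000 variable genes, 30 components, 15 neighbours, Leiden resolution 0.5, no integration). No doublet caller was run, so doublets remain. Microglia-like clusters had at least 3 of the 10 markers in 25% or more of their cells and no more than 1 leading gene of another type, and were not under 0.333 of their own library's median UMI count with no marker among their leading genes. A cluster led by choroid plexus genes (15 control and 35 cKO cells) was left out by a list added after seeing the data. A cluster of 3 control and 1340 cKO cells, at 0.249 of the median UMI count of its own library, had all 10 markers but stayed unnamed by the last condition. In simulated libraries 96% and 99% of the 95% intervals held the true ratio, at 1.5-fold and 0.5-fold, in 100 genes each.

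The members and gene lists were chosen with earlier results of these data known. Named genes were the 8 members, other complement genes past the test, the 2 largest changes among the classical, regulator and receptor genes, and the 5 genes most correlated with C1q. Values of 1 gene that the rule names, and of 1 marker on its own, are not reported here. Alternatives covered DESeq2 1.42.0, median-ratio scaling, no count filter, a replicate block, GC and length offsets (mgcv 1.9.3), each library left out, other marker references and other cell sets. Replicate numbers did not pair the forebrain libraries: same-numbered samples correlated at -0.35 to 0.19.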

Additional observations from a re-analysis of the deposited data

Results flagged for a closer look

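In groups of 6 or 7 forebrain libraries, 26 groups of values were checked for a single library far from the rest, and 3 had one, where chance gives about 1 in 20. C1qc stood at 39.8 CPM in cKO 5, with the next cKO library at 30.3 CPM and the lowest at 24.6 CPM. C4a stood at 1.02 CPM in control 3, below the next control at 1.54 CPM, and at 4.13 CPM in cKO 1, above the next cKO library at 2.53 CPM.

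The cluster of cells with few UMIs that was left out of the microglia comparison also held C1q RNA, and all 10 microglial markers were in 25% or more of its cells. Its 1340 cKO cells had 2316 CPM of C1qa, 2121 CPM of C1qb and 1746 CPM of C1qc, below the 8334, 7730 and 5851 CPM of the cKO microglia-like cells. Only 3 control cells lay there. With all kept cells, this cluster included, the cKO over control ratios were 0.899 for C1qa, 0.925 for C1qb and 0.861 for C1qc.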

How the results depend on the processing

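In the forebrain, the count of members called lower stayed between 2 and 3, and that of the wider list between 4 and 6, under every alternative and every library left out, with 0 called higher. C1qb, C1qc, Itgam and Itgax stayed past the threshold throughout, and C1qa lost its call without the count filter or without control 4, control 5 or cKO 3. The total of genes called lower moved from 47 to 19 with a replicate block, which also leaves out cKO 7 (34 without cKO 7 alone), and to 63 with DESeq2, and that of genes called higher from 9 to 1 (3 without cKO 7 alone) and to 23; without the count filter they were 59 and 23. With each library left out, they ran from 30 to 50 lower and from 3 to 23 higher, the last without cKO 1. With the replicate block, over the numbers found in both groups, the log2 changes were -0.66 for C1qa (adjusted p = 0.0156), -0.60 for C1qb (0.000525) and -0.65 for C1qc (0.000839), and the block changed no member's call. Values near 0 changed sign: C5ar1 to -0.044 with the replicate block. With libraries left out, C5ar1 ran from -0.037 to 0.19, C3 from -0.023 to 0.16, C3ar1 from -0.036 to 0.13 and C1qa over C1qc from -0.084 to 0.0052. The count of members past the threshold beside the markers, 4 as reported, ranged from 2 to 6 with libraries left out. It was 3 without Fcrls and Siglech among the markers, where C3 had an adjusted p of 0.0594, and 5 with a pseudocount of 0.5 CPM. In the microglia, ratios above 1 appeared within cluster 0 (C1qa 1.12, C1qb 1.21, C1qc 1.04) and within cluster 1 (C1qa 1.05, C1qb 1.14). With all barcodes, median-ratio scaling or equal weight per cell the chain ratios ran from 0.858 to 0.939. The cause of these shifts was not tested. Low counts limit C2 and C5ar1 in the forebrain, and 1 library per genotype limits every single-cell value.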
